A study of Mus musculus with 12 samples.

Results

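The interferon-response genes described here are 9 named genes, Irf1, Irf7, Isg15, Ifit1, Ifit3, Oasl2, Ifi47, Igtp and Gbp2, measured in murine hip cartilage before and after injury. Members were all probes whose Symbol, ignoring case, was 1 of these names. This gave 17 of the 45281 probes of the array, for 8 of the 9 genes. The normalized table of 21004 probes, which leaves out most dim probes, held 13 of them, for 7 genes, and 4 probes lay outside it. No probe carried the Symbol Isg15. A single probe under the older Symbol G1p2 has an accession that RefSeq gives to Isg15, and it is described as Isg15, outside the Symbol rule. The only probe of Ifit1 lay outside the normalized table, so 8 genes and 14 probes were tested.

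RNA was hybridized to Illumina mouse BeadChips, arrays on which each probe sits on coated beads and the brightness of the beads gives its signal. There were 12 arrays in 4 conditions of 3 arrays each, from C57BL6 mice aged 4 to 6 weeks by the labels: control and injured hips of WT mice, and the same of mice labelled MAPK9 KO, here Mapk9 KO. Mapk9 encodes a c-Jun N-terminal kinase, a stress-activated protein kinase, and the labels do not say how the deletion was made or in which cells it is present. Hips were injured by avulsion of the femoral epiphysis and cultured for 4 h in serum-free medium, while control hips were snap-frozen, so injury and culture cannot be told apart in any injury difference below. According to the methods, 6 hips of 3 mice were pooled for each replicate, but the methods describe control and injured cartilage without naming the Mapk9 KO arrays.

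Interferons are secreted proteins that bind receptors on the cell surface. The receptors activate Janus kinases, which phosphorylate STAT proteins, and the STATs enter the nucleus and switch on the interferon-response genes, many of which act against viruses and intracellular microbes. Promoters of genes induced by type I interferons often carry the interferon-stimulated response element (ISRE), and those of genes induced by interferon gamma often carry the gamma-activated site (GAS). Irf1 and Irf7 encode transcription factors of the interferon regulatory factor family, Isg15 encodes a ubiquitin-like protein, Ifit1 and Ifit3 encode proteins that act on foreign RNA, Oasl2 encodes an oligoadenylate synthetase-like protein, and Ifi47, Igtp and Gbp2 encode interferon-inducible GTPases.

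All 9 genes had a promoter entry in RefSeq (build GRCm38.p6), here the 250 bases before the transcript start, with 2 entries for Irf1. Both strands were searched for ISRE-type letters, here GAAA followed by any 2 bases and GAAA again, and for the GAS-type letters TTCNNNGAA, where N is any base. The ISRE-type letters occurred in 5 of the 9 genes and in 2.98% of the 32851 promoters of the table, and the GAS-type letters in 2 of the 9 genes and in 7.02% of those promoters. The promoters of the 6 genes with a match are shown because they hold the letters that set these members apart from Irf7, Oasl2 and Ifi47, in which neither motif was found. Each is printed 5′ to 3′ along the gene, with its last base next to the transcript start, and capitals mark the matches on either strand.
Isg15: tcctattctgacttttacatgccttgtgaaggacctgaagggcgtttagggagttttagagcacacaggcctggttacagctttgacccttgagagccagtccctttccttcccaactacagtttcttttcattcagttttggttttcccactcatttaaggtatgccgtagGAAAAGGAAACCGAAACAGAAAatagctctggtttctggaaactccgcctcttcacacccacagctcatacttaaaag
Ifit1: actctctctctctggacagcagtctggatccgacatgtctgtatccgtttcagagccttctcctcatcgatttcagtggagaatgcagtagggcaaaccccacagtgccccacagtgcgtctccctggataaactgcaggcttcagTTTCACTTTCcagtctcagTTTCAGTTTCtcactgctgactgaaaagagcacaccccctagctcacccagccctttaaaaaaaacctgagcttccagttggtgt
Ifit3: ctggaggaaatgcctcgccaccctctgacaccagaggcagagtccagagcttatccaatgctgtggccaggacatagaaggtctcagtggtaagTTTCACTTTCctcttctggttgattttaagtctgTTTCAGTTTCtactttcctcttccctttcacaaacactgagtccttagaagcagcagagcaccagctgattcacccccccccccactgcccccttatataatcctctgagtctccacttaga
Gbp2: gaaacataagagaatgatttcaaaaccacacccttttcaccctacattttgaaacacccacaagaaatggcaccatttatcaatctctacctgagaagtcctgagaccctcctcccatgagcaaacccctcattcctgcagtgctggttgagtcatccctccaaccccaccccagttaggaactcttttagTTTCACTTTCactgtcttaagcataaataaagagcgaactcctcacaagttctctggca
Igtp: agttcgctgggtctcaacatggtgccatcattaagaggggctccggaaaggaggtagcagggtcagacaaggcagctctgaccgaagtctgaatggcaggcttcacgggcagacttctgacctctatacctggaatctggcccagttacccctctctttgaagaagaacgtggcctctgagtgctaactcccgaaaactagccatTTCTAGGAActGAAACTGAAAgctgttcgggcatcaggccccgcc
Irf1: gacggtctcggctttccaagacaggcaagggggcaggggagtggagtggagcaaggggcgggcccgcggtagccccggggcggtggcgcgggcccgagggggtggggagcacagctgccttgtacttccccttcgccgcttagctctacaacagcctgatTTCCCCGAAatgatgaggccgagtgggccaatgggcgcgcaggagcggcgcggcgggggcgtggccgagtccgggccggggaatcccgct

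The Isg15 promoter (chr4:156200819-156201068, minus strand) held 3 overlapping ISRE-type matches, which run from 78 to 57 bases before the start. In Ifit1 (chr19:34640639-34640888, plus strand) 2 matches lay from 104 to 95 and from 85 to 76 bases before the start. Its neighbour Ifit3 (chr19:34583279-34583528, plus strand) held the same matched letters, TTTCACTTTC and TTTCAGTTTC, from 156 to 147 and from 122 to 113 bases before the start. Gbp2 (chr3:142620413-142620662, plus strand) held 1 match, from 59 to 50 bases before the start. Igtp (chr11:58199306-58199555, plus strand) was the only 1 of the 9 genes with both motifs, a GAS-type match from 45 to 37 and an ISRE-type match from 34 to 25 bases before the start, which do not overlap. Irf1 (chr11:53769764-53770013, plus strand) held a GAS-type match from 90 to 82 bases before the start and no ISRE-type match. A match is a description of the letters and was not tested as a binding site.

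The labels were first checked on Mapk9 itself. Its brightest probe averaged 10.76 ± 0.23 in WT control, 10.31 ± 0.26 in WT injured, 9.19 ± 0.08 in Mapk9 KO control and 8.74 ± 0.04 in Mapk9 KO injured arrays (SD, n = 3). The WT arrays read 10.05 to 10.90 and the Mapk9 KO arrays 8.69 to 9.28, with no overlap. It was lower in Mapk9 KO by 1.57 in control hips (limma adjusted p = 0.0151) and by 1.57 in injured hips (limma adjusted p = 0.00485), and was still detected on all 6 Mapk9 KO arrays. The control hip difference did not pass with the replicate number as a block (adjusted p = 0.061). Another probe was detected on the 3 WT control arrays, on 1 of the 3 WT injured arrays and on no Mapk9 KO array. Whether these probes lie in the deleted part of the gene is not given.

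In WT hips Ifit3 and Gbp2 fell post injury, by 1.09 and 1.00 on the log2 scale, and the other 6 genes tested did not pass. In Mapk9 KO hips Ifit3, Gbp2, Isg15, Igtp, Oasl2 and Ifi47 fell, by 0.61 to 1.56, and Irf1 and Irf7 did not pass. No member rose at its brightest probe in either genotype. The values of each gene are given below as normalized log2 intensities of its brightest probe unless another probe is named, with injured minus control as the difference. A gene passed the test where the limma adjusted p, taken over all 21004 probes, was under 0.05. In a pooled tissue, fewer cells of a type and less RNA per cell cannot be told apart.

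**Figure D1:**
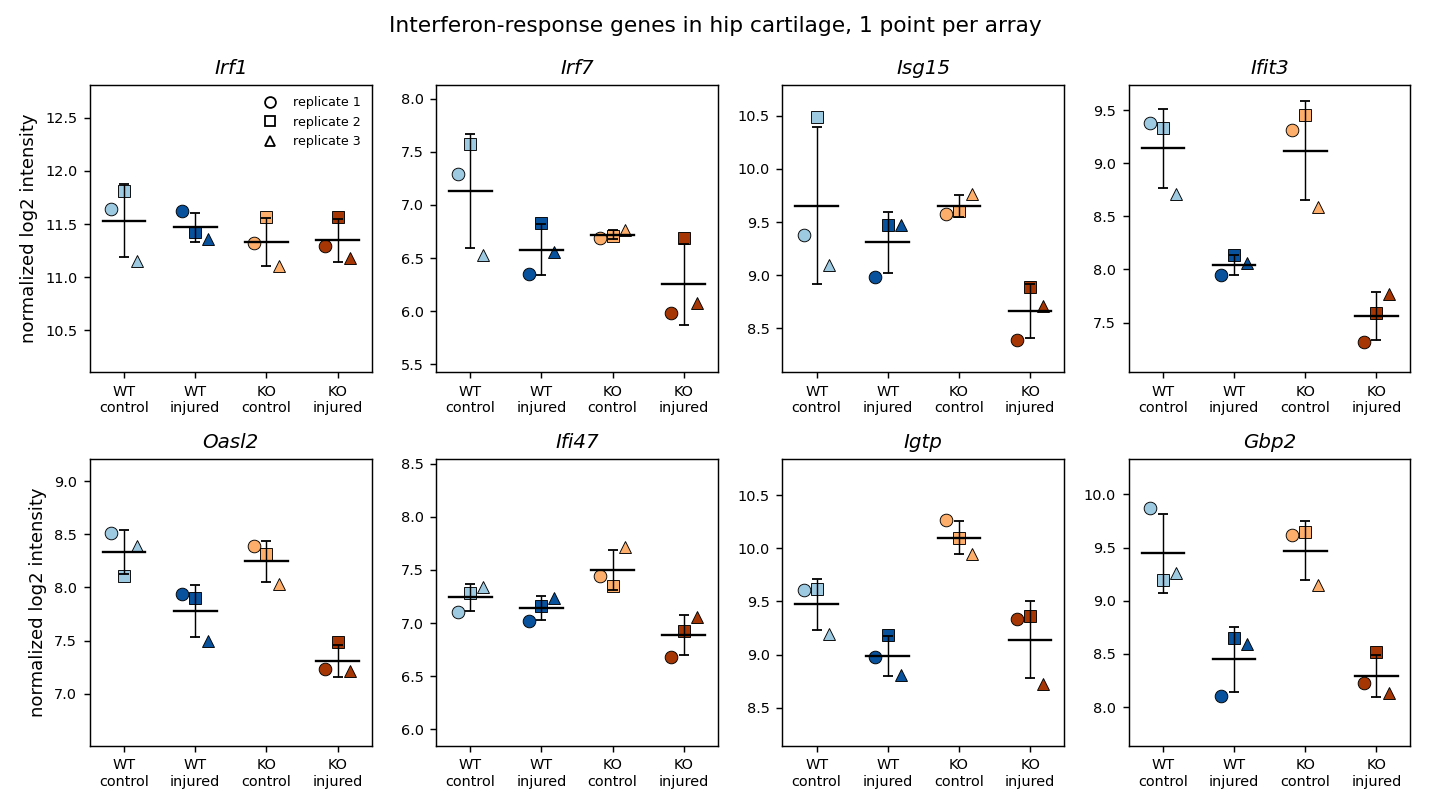
Normalized log2 intensity of the brightest probe of each gene on each of the 12 arrays, with circles, squares and triangles for replicates 1, 2 and 3, a line at the mean of each condition and a bar of 1 SD (n = 3). Every vertical axis spans the same number of log2 units but starts at a different level. The injured arrays lie below the control arrays of their genotype without overlap for Ifit3, Oasl2, Igtp and Gbp2, while Irf1 overlaps in all 4 conditions.

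Ifit3 had the lowest injury difference of the 8 genes in both genotypes. It read 9.37, 9.33 and 8.71 in WT control, 7.95, 8.13 and 8.06 in WT injured, 9.32, 9.45 and 8.59 in Mapk9 KO control and 7.32, 7.59 and 7.77 in Mapk9 KO injured arrays. All 6 injured arrays were below all 6 control arrays. Ifit3 fell by 1.09 in WT (SE 0.23, limma adjusted p = 0.00657), a fold change of 2.13, and by 1.56 in Mapk9 KO (SE 0.24, limma adjusted p = 0.000527), a fold change of 2.94. Replicate 3 gave the smallest fall of both genotypes, 0.65 in WT and 0.82 in Mapk9 KO, against 1.20 to 1.99 in the other pairs. With the methods' t-test the WT difference did not pass (adjusted p = 0.0588). RefSeq lists a near-identical neighbouring gene, Ifit3b, so the signal may be shared between these genes. Further probes of Ifit3, at positions 125 and 126 of the transcript, were not well above background on nearly all arrays and give no fold change.

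Ifit1, which lies beside Ifit3 and is induced with it by type I interferon in many cell types, was not well above background on any of the 12 arrays. Its bead signal, before background correction and normalization, lay between 95.6 and 146. The mean signal was 122 ± 23.3 in WT control and 126 ± 18.5 in WT injured arrays (SD, n = 3, two-sided exact permutation test p = 0.8), and 119 ± 13.1 in Mapk9 KO control and 128 ± 22.9 in Mapk9 KO injured arrays (p = 0.6 by the same exact test). With 3 arrays against 3 this test cannot go below 0.1. A change of Ifit1 was not detectable at this signal.

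Gbp2, a guanylate-binding protein, fell in both genotypes. Its log2 intensities were 9.87, 9.20 and 9.26 in WT control and 8.10, 8.65 and 8.59 in WT injured arrays, and 9.62, 9.65 and 9.15 against 8.22, 8.52 and 8.13 in Mapk9 KO. Control and injured arrays did not overlap in either genotype. The fall was 1.00 in WT (SE 0.25, limma adjusted p = 0.0158) and 1.18 in Mapk9 KO (SE 0.20, limma adjusted p = 0.000919), and the WT value lay just under the 2-fold limit. The WT difference did not pass without replicate 1 of the WT control (−0.78, adjusted p = 0.0612), without replicate 1 of the WT injured arrays (−0.82, adjusted p = 0.0649) or with the methods' t-test (adjusted p = 0.101). The other 2 probes of Gbp2 lay outside the normalized table, were detected on none of the 12 arrays, and had bead signals between 96.6 and 167.

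Oasl2 was lower on every injured array than on every control array of the same genotype. WT control arrays read 8.51, 8.11 and 8.39, WT injured arrays 7.93, 7.90 and 7.50, Mapk9 KO control arrays 8.39, 8.31 and 8.03, and Mapk9 KO injured arrays 7.23, 7.49 and 7.21. In Mapk9 KO the fall was 0.93 (SE 0.18, limma adjusted p = 0.0021). The WT difference of −0.56 (SE 0.21) missed the threshold (limma adjusted p = 0.0863), but passed where all 12 arrays shared 1 estimate of the spread (adjusted p = 0.0373) and under quantile normalization without background correction (−0.37, adjusted p = 0.046). A second probe of Oasl2 was detected on 1 WT control and 1 Mapk9 KO control array and gives no fold change.

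Igtp, also known as Irgm3, belongs to the immunity-related GTPases, which act at the vacuoles of intracellular microbes. Its values were 9.61, 9.62 and 9.19 in WT control, 8.97, 9.18 and 8.81 in WT injured, 10.26, 10.10 and 9.94 in Mapk9 KO control and 9.33, 9.37 and 8.72 in Mapk9 KO injured arrays. Mapk9 KO control arrays were the highest of the 4 conditions and did not overlap WT control. Igtp fell by 0.96 in Mapk9 KO (SE 0.21, limma adjusted p = 0.0045). The difference in WT was −0.48 (SE 0.21, limma adjusted p = 0.126), with no overlap between control and injured arrays. Under quantile normalization without background correction it passed (−0.42, adjusted p = 0.0235).

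Ifi47, of the same GTPase family, had little spread in WT, with 7.10, 7.29 and 7.34 in control and 7.02, 7.16 and 7.24 in injured arrays. In Mapk9 KO it read 7.44, 7.35 and 7.71 in control and 6.68, 6.93 and 7.06 in injured arrays, which did not overlap. The WT difference was −0.10 (SE 0.19, limma adjusted p = 0.747), with a 95% confidence interval from −0.52 to 0.32. Ifi47 fell by 0.61 in Mapk9 KO (SE 0.19, limma adjusted p = 0.0231). That difference did not pass without replicate 3 of the Mapk9 KO control (−0.51, adjusted p = 0.0666), without replicate 1 of the Mapk9 KO injured arrays (−0.51, adjusted p = 0.096) or with the methods' t-test (adjusted p = 0.0571).

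Isg15 varied most between replicates in WT control, with 9.38, 10.49 and 9.09, while WT injured arrays read 8.98, 9.48 and 9.48. Mapk9 KO control arrays lay close together at 9.57, 9.60 and 9.77, and the Mapk9 KO injured arrays at 8.39, 8.89 and 8.71 were all below them. Control and injured arrays overlapped in WT and did not overlap in Mapk9 KO. Isg15 fell by 0.98 in Mapk9 KO (SE 0.19, limma adjusted p = 0.00179). In WT the difference was −0.34 (SE 0.34, limma adjusted p = 0.506), and 1 array decided its sign, since it was 0.076 (adjusted p = 0.854) without replicate 2 of the WT control.

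Irf7, a transcription factor that amplifies the type I interferon response, read 7.30, 7.57 and 6.53 in WT control, 6.35, 6.83 and 6.56 in WT injured, 6.69, 6.71 and 6.76 in Mapk9 KO control and 5.98, 6.69 and 6.08 in Mapk9 KO injured arrays. WT control and WT injured arrays overlapped through replicate 3 of the control. Differences of −0.56 in WT (SE 0.28, limma adjusted p = 0.179) and −0.47 in Mapk9 KO (SE 0.21, limma adjusted p = 0.102) did not pass the test. The WT difference passed without replicate 3 of the WT control (−0.86, adjusted p = 0.0258), and the Mapk9 KO difference without replicate 2 of the injured arrays (−0.69, adjusted p = 0.0185).

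Irf1 encodes a transcription factor that interferon gamma and other stimuli induce, and it was measured by 4 probes of the normalized table and 1 outside it. The probe at position 1985 of the transcript was the brightest. It read 11.64, 11.81 and 11.15 in WT control, 11.62, 11.43 and 11.36 in WT injured, 11.32, 11.56 and 11.11 in Mapk9 KO control and 11.29, 11.57 and 11.18 in Mapk9 KO injured arrays, so that all 4 conditions overlapped. Differences were −0.06 in WT (95% confidence interval −0.56 to 0.44, limma adjusted p = 0.868) and 0.01 in Mapk9 KO (−0.41 to 0.44, limma adjusted p = 0.962). These intervals leave out a 2-fold change in either direction.

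The other 3 Irf1 probes of the table are given by transcript position, and no difference between probes was tested. At position 329 the arrays read 7.88, 7.86 and 7.21 in WT control, 8.12, 7.94 and 7.47 in WT injured, 7.11, 7.63 and 7.14 in Mapk9 KO control and 8.31, 7.87 and 7.99 in Mapk9 KO injured. This probe rose by 0.76 in Mapk9 KO (SE 0.21, limma adjusted p = 0.0134), and its difference in WT was 0.19 (SE 0.26, limma adjusted p = 0.643). The overlapping probe at position 330 had differences of 0.48 in Mapk9 KO (SE 0.18, limma adjusted p = 0.0603) and 0.22 in WT (SE 0.21, limma adjusted p = 0.486), and its Mapk9 KO difference passed with the replicate number as a block (adjusted p = 0.047). At position 1707 the differences were 0.25 in WT (SE 0.26) and −0.12 in Mapk9 KO (SE 0.20), neither of which passed. At position 329 the rise did not pass without replicate 1 of the Mapk9 KO injured arrays (0.64, adjusted p = 0.0575) or with the methods' t-test (adjusted p = 0.0712). The probe outside the table was detected on no array, with bead signals between 102 and 167.

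**Figure D2:**
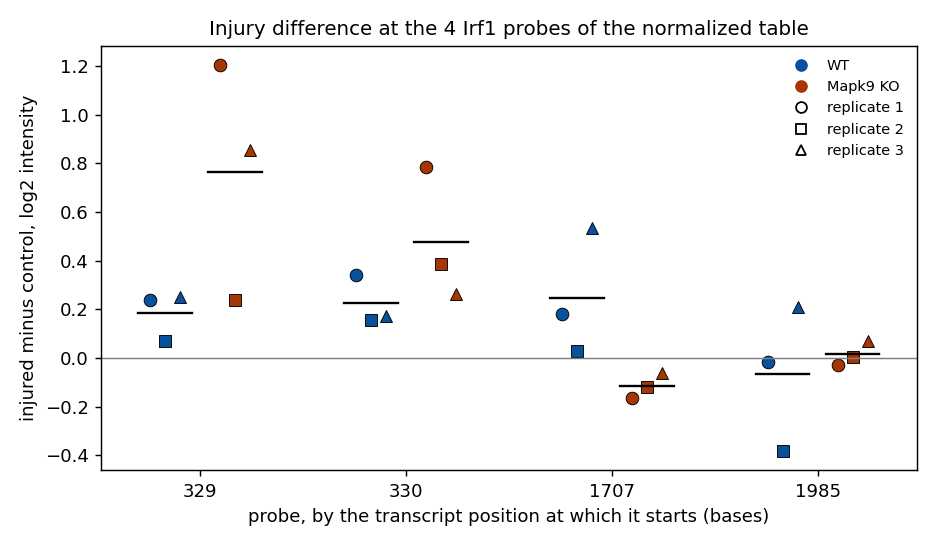
Injured minus control log2 intensity at the 4 Irf1 probes of the normalized table, ordered by the transcript position (bases) at which each starts; blue is WT and brown Mapk9 KO, circles, squares and triangles are replicates 1, 2 and 3, and lines are group differences. All 6 pairs lie above 0 at positions 329 and 330, and at position 1707 the 3 WT pairs lie above 0 and the 3 Mapk9 KO pairs below it.

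Counted over the 8 genes by their brightest probe, 2 fell in WT (Ifit3 and Gbp2) and 0 rose, where 12.7% of all probes tested fell. With the 2-fold limit added, Ifit3 alone remained, against 7.14% of all probes. In Mapk9 KO 6 of the 8 fell and 0 rose, where 19.3% of all probes fell, and Ifit3 and Gbp2 were past 2-fold, against 9.14% of all probes. With any 1 of the 6 Mapk9 KO arrays left out, 3 to 5 genes were past 2-fold. The median difference of the 8 genes was −0.52 in WT and −0.95 in Mapk9 KO, beside −0.02 and −0.04 over the 15424 genes tested. Control and injured arrays did not overlap for 4 of the 8 genes in WT, where 41.2% of all probes did not overlap, and for 7 of the 8 in Mapk9 KO, where 49.7% did not. Over both genotypes, in a fit of all 12 arrays, 7 of the 8 genes fell and Irf1 did not pass, where 24.2% of all probes fell, and 2 of the 8 fell past 2-fold, against 7.91% of all probes. The averaged falls ranged from 0.36 for Ifi47 (limma adjusted p = 0.0261) to 1.32 for Ifit3 (limma adjusted p = 2.22e-05). Gbp2 fell by 1.09, Oasl2 by 0.75, Igtp by 0.72, Isg15 by 0.66 and Irf7 by 0.51. That of Irf7 (limma adjusted p = 0.0332) did not pass in 11 of 18 alternatives, and that of Ifi47 did not pass in 3 of 18.

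**Figure D3:**
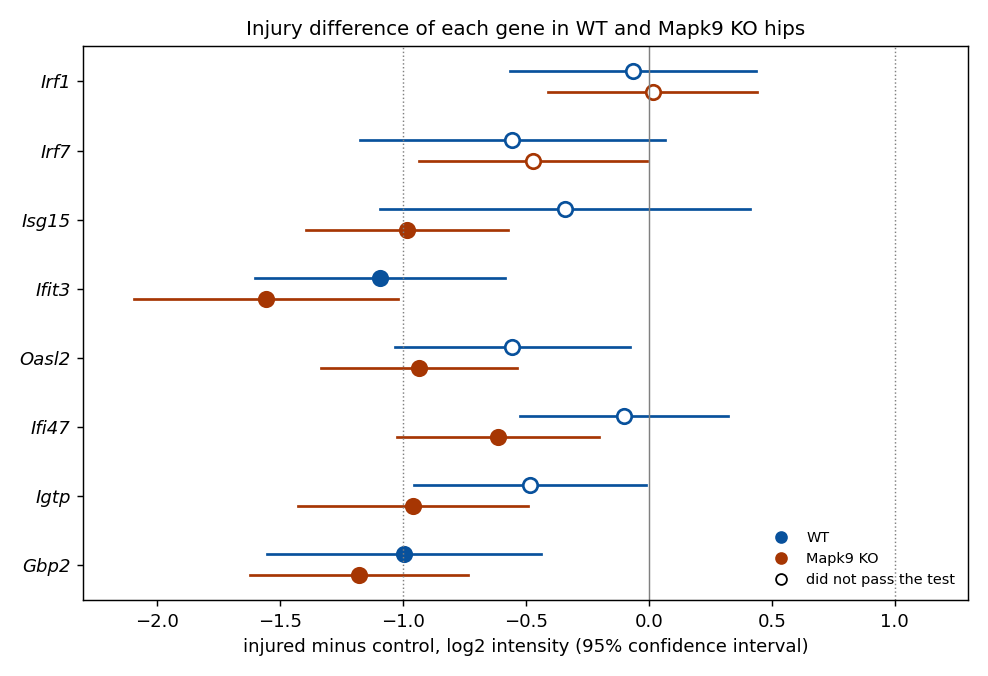
Injured minus control difference of log2 intensity for each gene (brightest probe) with its 95% confidence interval, in WT (blue) and Mapk9 KO (brown). Filled points passed the test at an adjusted p under 0.05 and open points did not; dotted lines mark a 2-fold change. Ifit3 and Gbp2 are filled in both genotypes, Oasl2, Igtp, Isg15 and Ifi47 in Mapk9 KO only, and the intervals of the genotypes overlap for every gene.

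Passing in 1 genotype and not in the other does not show that the genotypes differ, so the difference of the injury differences was tested in 1 fit of all 12 arrays. No member passed, and 0 of the 21004 probes passed (0% of all probes). No member reached an unadjusted p under 0.05 in this fit, which leaves out the replicate numbers. The value, Mapk9 KO minus WT, was −0.64 for Isg15 (95% confidence interval −1.54 to 0.25, limma adjusted p = 0.646), −0.51 for Ifi47 (−1.04 to 0.01, limma adjusted p = 0.509), −0.48 for Igtp (−1.11 to 0.16, limma adjusted p = 0.63) and −0.46 for Ifit3 (−1.20 to 0.28, limma adjusted p = 0.691). For Oasl2 it was −0.38, for Gbp2 −0.18, for Irf1 0.08 and for Irf7 0.09. These intervals for Isg15, Ifi47, Igtp and Ifit3 include a more than 2-fold larger fall in Mapk9 KO as well as no difference. With the replicate number as a block, 112 of the 21004 probes passed (0.533% of all probes) and 0 of the 8 members did. Ifi47 (95% confidence interval −0.92 to −0.11, limma adjusted p = 0.211) and Igtp (−0.91 to −0.04, limma adjusted p = 0.279) then reached an unadjusted p under 0.05. How many of all probes did so was not counted. Within each of the 3 replicate numbers, the difference was lower in Mapk9 KO than in WT for Ifi47, Igtp and Ifit3. This did not hold for Isg15, Oasl2, Gbp2, Irf1 or Irf7, and such agreement was not counted over all probes.

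Between genotypes, 0 of the 8 interferon-response genes passed in control hips and 0 in injured hips, where 0.119% and 0.181% of all probes passed. At an unadjusted p under 0.05 there was 1 gene in control hips and 3 in injured hips. With the replicate number as a block these were 1 and 4, and again 0 of the 8 passed, where 0.0905% and 1.3% of all probes passed. The share of all probes under the unadjusted threshold was not taken, so the counts at that threshold cannot be judged against it. Igtp was higher in Mapk9 KO than in WT control hips by 0.63 (SE 0.22, 95% confidence interval 0.15 to 1.11, limma adjusted p = 0.62), with no overlap of the arrays. In injured hips Isg15 was lower in Mapk9 KO by 0.65 (SE 0.20, limma adjusted p = 0.261), Ifit3 by 0.48 (SE 0.17, limma adjusted p = 0.305) and Oasl2 by 0.47 (SE 0.18, limma adjusted p = 0.339), each with no overlap. Such non-overlap occurred for 2 of the 8 genes in control hips, where it occurred for 10.8% of all probes, and for 3 of the 8 in injured hips, where it occurred for 16.8%.

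The other genes of the pathway were taken as lists of 143 named genes, of which 95 had a probe in the normalized table. In WT 12 of the 95 fell and 9 rose, where 12.7% of all probes fell and 12.6% rose, and in Mapk9 KO 24 fell and 11 rose, where 19.3% fell and 19% rose. These shares also stand behind the counts of each list below. The median difference of the 95 genes was 0.04 in WT and −0.07 in Mapk9 KO, close to that of all genes.

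Of the 15 interferon genes of the list, 14 had a probe on the array. Ifna1 and Ifnab were detected on all 12 arrays, with mean bead signals of 224 and 278, and Ifnz on 8 arrays, with a mean of 177. These 3 had a probe in the normalized table, and none of them passed in either genotype. Ifna12 was detected on 1 array. The other 10 genes, among them Ifnb1, the main early type I interferon, and Ifng, which encodes interferon gamma, were detected on 0 of the 12 arrays. Interferon alpha genes are near-identical to each other, so their probes may share signal. Of 6 receptor chains, Ifnar1, a chain of the type I interferon receptor, was detected on 0 of the 12 arrays and lay outside the normalized table. Of the other 5, 1 rose and 0 fell in WT, and 1 rose and 1 fell in Mapk9 KO. Il28ra, a chain of the type III interferon receptor, rose by 1.06 in WT (SE 0.34, limma adjusted p = 0.043) and by 1.03 in Mapk9 KO (SE 0.18, limma adjusted p = 0.00115). Ifngr2, a chain of the interferon gamma receptor, fell by 1.27 in Mapk9 KO (SE 0.21, limma adjusted p = 0.000724), and its WT difference was −0.74 (limma adjusted p = 0.0518; with the replicate number as a block, adjusted p = 0.0232). The WT rise of Il28ra did not pass without replicate 1 or 3 of the WT control, without replicate 1 or 2 of the WT injured arrays, or with the methods' t-test (adjusted p from 0.113 to 0.21).

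Among the 6 kinases and STATs, 0 passed in WT, and 1 rose and 1 fell in Mapk9 KO, with medians of −0.20 and −0.15. Over all probes 12.6% rose and 12.7% fell in WT, and 19% rose and 19.3% fell in Mapk9 KO. With the replicate number as a block 2 of the 6 fell in Mapk9 KO, where 44.8% of all probes passed in either direction. Of the 11 nucleic acid sensing genes, 1 rose and 0 fell in WT, and 0 rose and 2 fell in Mapk9 KO. The gene that rose in WT was Mb21d1, which encodes the DNA sensor cGAS, detected on no WT control array and at least 1.48-fold higher in injured hips (limma adjusted p = 0.012). In Mapk9 KO Mavs, the mitochondrial adaptor of RNA sensing, and Tlr7, an endosomal RNA receptor, fell by 0.73 and 0.61. The WT difference of Tlr7, −0.62 (limma adjusted p = 0.0525), passed with the replicate number as a block (adjusted p = 0.0449). Of the 7 other genes of interferon regulatory factors and their partners, 2 rose in each genotype and 0 fell. Irf2bp2, a corepressor, rose by 0.95 in WT (limma adjusted p = 0.00616) and 0.94 in Mapk9 KO (limma adjusted p = 0.00136). Irf4 rose by 0.80 in WT and Irf3 by 0.56 in Mapk9 KO. With the replicate number as a block Irf3 also passed in WT (0.61, adjusted p = 0.036, against 0.0756 without it).

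Antiviral effectors were the longest list, with 34 genes. In WT 7 fell and 0 rose, where 12.7% of all probes fell and 12.6% rose, and in Mapk9 KO 13 fell and 2 rose, where 19.3% fell and 19% rose. The medians were −0.12 and −0.29. Trim21, an antibody receptor of the cytosol, fell by 1.20 in WT (limma adjusted p = 0.00432) and 1.09 in Mapk9 KO (limma adjusted p = 0.000398). Ube2l6, the enzyme that passes ISG15 to its targets, fell by 1.15 and 0.63 (limma adjusted p = 0.00944 and 0.0413). Ifit2, of the same family as Ifit3, fell by 1.06 in WT (SE 0.19, limma adjusted p = 0.00292) and differed by −0.42 in Mapk9 KO (SE 0.18, limma adjusted p = 0.0832). Cmpk2, a mitochondrial nucleotide kinase, fell by 0.94 in WT and 1.22 in Mapk9 KO. The genes that rose in Mapk9 KO were Oas2, an oligoadenylate synthetase, by 0.87 (limma adjusted p = 0.00262) and Samd9l by 0.60 (limma adjusted p = 0.0413). With the methods' t-test the WT falls of Trim21 and Ube2l6 did not pass (adjusted p = 0.0525 and 0.0873), and the Mapk9 KO fall of Ube2l6 did not pass in 7 of 14 alternatives (adjusted p from 0.0609 to 0.136).

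GTPases other than the members were represented by 4 genes, of which 2 fell in WT and 3 in Mapk9 KO, and 0 rose. Irgm2 fell by 1.78 in WT (SE 0.20, limma adjusted p = 0.000198) and 1.36 in Mapk9 KO (SE 0.17, limma adjusted p = 0.000125). Gbp7 fell by 1.47 in Mapk9 KO (SE 0.29, limma adjusted p = 0.00254), and its WT difference of −0.75 (limma adjusted p = 0.0531) passed with the replicate number as a block (adjusted p = 0.0269). The Mapk9 KO fall of Gbp7 did not pass with the methods' t-test (adjusted p = 0.0666). Its probe was detected on 8 of the 12 arrays, so the size of its fall rests in part on signals near the background. The probes described as Gbp7 and Gbp3 carry the deposited Symbols Gbp6 and Gbp4. Irgm1, the remaining gene with Gbp3, differed by 0.23 in WT (limma adjusted p = 0.522) and 0.03 in Mapk9 KO (limma adjusted p = 0.931), while Gbp3 fell by 0.89 and 0.61. The median of the 4 genes was −0.82 in WT and −0.99 in Mapk9 KO.

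Of 17 genes of antigen presentation and interferon-induced chemokines, 2 fell and 2 rose in WT, where 12.7% and 12.6% of all probes did, and 3 fell and 2 rose in Mapk9 KO, where 19.3% and 19% did. The medians were −0.18 and −0.02. Cxcl9, a chemokine that interferon gamma induces, fell by 2.00 in WT (SE 0.34, limma adjusted p = 0.00217) and 2.45 in Mapk9 KO (SE 0.23, limma adjusted p = 1.68e-05). Cxcl10, its close relative, rose by 1.44 in WT (SE 0.42, limma adjusted p = 0.0296), where it was detected on 1 control array and on all 3 injured arrays. In Mapk9 KO it was detected on no control array, and injured hips were at least 1.71-fold higher (limma adjusted p = 1.47e-05). The WT rise of Cxcl10 did not pass under 6 of 14 alternatives, among them the methods' t-test (adjusted p = 0.202). Cd274, which encodes the checkpoint ligand PD-L1, rose by 2.15 in WT (limma adjusted p = 4.82e-05) and 2.19 in Mapk9 KO (limma adjusted p = 2.55e-05). The WT fall of Cxcl9 did not pass with the methods' t-test (adjusted p = 0.0716). Nlrc5, an activator of class I antigen presentation genes, fell by 0.85 in WT, and Tap1, a peptide transporter, and Cd74, the invariant chain, fell by 0.59 and 0.54 in Mapk9 KO.

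Of 8 feedback inhibitors of the pathway, 3 rose and 1 fell in each genotype. They included the gene with the largest rise among the 95 in both genotypes. Socs3, a suppressor of cytokine signalling, rose by 2.37 in WT (SE 0.30, limma adjusted p = 0.000421) and 2.74 in Mapk9 KO (SE 0.17, limma adjusted p = 9.77e-07). Ptpn2, a phosphatase that acts on Janus kinases and STATs, rose by 1.61 and 2.46, and Cish, another SOCS family member, by 1.33 and 1.74. Usp18, the protease that removes ISG15 from proteins and is itself induced by type I interferon, fell by 0.88 in WT (SE 0.23, limma adjusted p = 0.0194) and by 1.48 in Mapk9 KO (SE 0.19, limma adjusted p = 0.000142). Its WT fall did not pass without replicate 1 of the WT control, without replicate 2 or 3 of the WT injured arrays, or with the methods' t-test (adjusted p from 0.0616 to 0.0913).

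**Figure D4:**
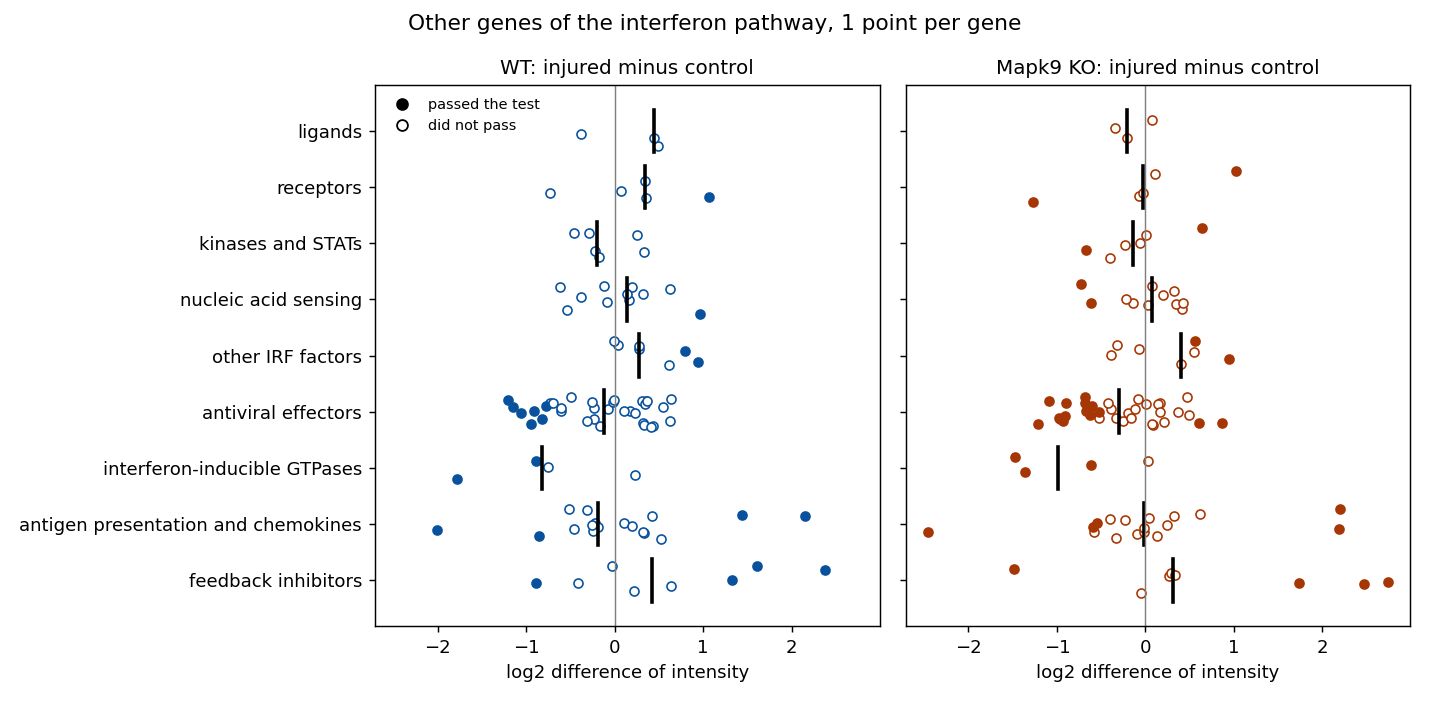
Injured minus control difference of log2 intensity (horizontal axis) of each of the 95 other pathway genes by list, in WT (left) and Mapk9 KO (right); filled points passed the test at an adjusted p under 0.05, open points did not, and black bars are list medians. The medians of the interferon-inducible GTPases, −0.82 and −0.99, lie below 0 in both panels, and the feedback inhibitors hold the highest points.

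Markers of other cell types moved with injury as well. Each list is summarised per array by the mean log2 intensity of its genes. Its counts stand beside 12.6% of all probes that rose and 12.7% that fell in WT, and 19% that rose and 19.3% that fell in Mapk9 KO. Of 12 chondrocyte markers 8 rose in each genotype, and the list mean was 10.57 to 11.23 on control arrays and 12.05 to 12.31 on injured arrays. All 12 were detected on every array. Skeletal muscle markers fell, 13 of 16 in WT and 16 of 16 in Mapk9 KO. Their list mean was 10.24 to 12.25 in WT control, 7.67 to 9.50 in WT injured, 12.26 to 12.63 in Mapk9 KO control and 8.07 to 9.22 in Mapk9 KO injured arrays.

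Of 14 macrophage markers, 8 fell and 5 rose in WT, and 9 fell and 5 rose in Mapk9 KO. Csf1r, the receptor on which macrophages depend, fell by 1.87 in WT and 2.21 in Mapk9 KO, while Cd14, a receptor for bacterial lipopolysaccharide, rose by 5.01 and 5.33. The list mean lay between 8.56 and 8.84 in WT control, 8.28 and 8.68 in WT injured, 8.80 and 8.96 in Mapk9 KO control and 8.13 and 8.41 in Mapk9 KO injured arrays. Neutrophil markers rose in 5 of 10 cases in each genotype and lymphocyte markers in 6 of 10 in WT and 3 of 10 in Mapk9 KO, where 12.6% and 19% of all probes rose. Cd3e was detected on no array. Of 5 plasmacytoid and dendritic markers, 1 rose in each genotype and 1 fell in Mapk9 KO, of 10 endothelial markers 2 rose in WT and 1 rose and 1 fell in Mapk9 KO, and of 7 erythroid markers 0 passed in WT and 2 fell in Mapk9 KO. With the replicate number as a block 2 plasmacytoid and dendritic markers rose and 3 endothelial markers fell in Mapk9 KO, and 1 erythroid marker fell in WT. In WT 7 of 10 neutrophil, 7 of 10 lymphocyte and 9 of 12 chondrocyte markers then rose, and 15 of 16 skeletal muscle markers fell. With that block 29.6% of all probes passed in WT and 44.8% in Mapk9 KO, both directions together. The part of muscle, macrophages or any other cell type in the interferon-response differences was not tested.

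**Figure D5:**
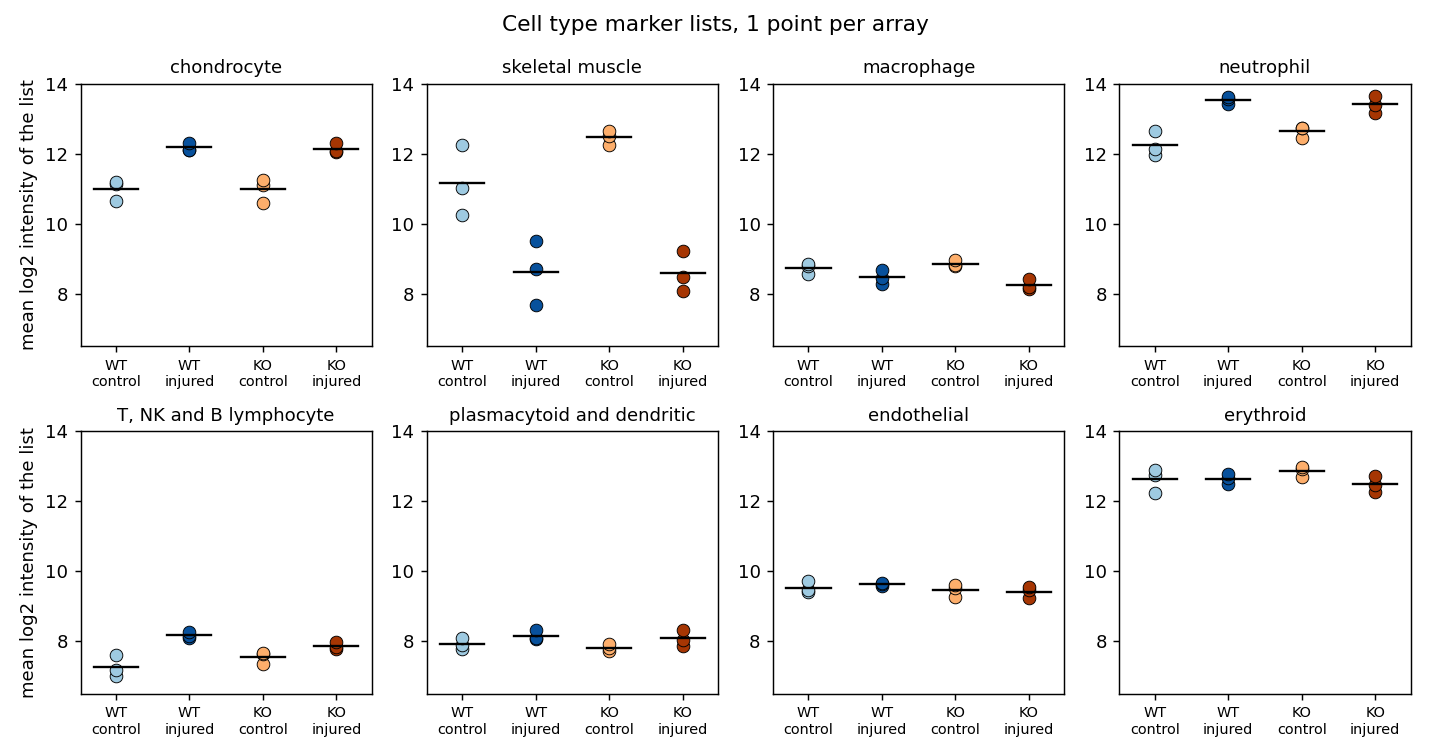
Mean log2 intensity (vertical axis, from 6.5 to 14) of the genes of each cell type marker list, 1 point per array and a line at the mean of each condition (n = 3). Skeletal muscle falls from control to injured in both genotypes, chondrocyte and neutrophil lists lie higher on injured arrays, and macrophage list means lie lower on injured than on control arrays in Mapk9 KO without overlap.

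The genes nearest to 3 of the members were found by the root mean square difference of their profiles over the 12 arrays, each centred on its own mean, as a description with no test. Nearest to Irf1, whose own profile had a root mean square of 0.21, were Nras (0.0805), Hp1bp3 (0.0865) and Stub1 (0.0899). For Isg15, whose own root mean square was 0.53, they were 1110021J02Rik (0.212), Maml3 (0.218) and Metrn (0.223). For Igtp, at 0.47, they were Etfa (0.187), Uqcrc2 (0.188) and Smim8 (0.19). None of these 9 genes is in the pathway lists, and all profiles come from the same 12 arrays.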

How the data were processed

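Pooled hip cartilage gave 12 samples for Illumina mouse BeadChips. Deposited files hold the intensity of 45281 probes, not corrected for background, each with a detection p-value as deposited (detected here means under 0.05). The authors corrected the signals with negative control probes, normalized them with vsn and deposited log2 values for 21004 probes. The versions of the normalization software and a genome build are not given in the sources used here. Samples were grouped by their titles. Members and gene lists were chosen with earlier results of these data known, and no list was tested as a set.

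Tests used limma 3.58.1 (lmFit and eBayes, two-sided) in R 4.3.3 for every probe of the normalized table, on the 6 arrays of each comparison, and p-values were adjusted by Benjamini-Hochberg across the table. The interaction and the average used all 12. The threshold was an adjusted p under 0.05, with a fold change above 2 where named. The probe with the highest mean over 12 arrays stood for a gene. Named genes were the members, Mapk9, in each pathway list up to 3 genes past the threshold in WT and up to 2 in Mapk9 KO only, marker genes, and the 3 genes nearest to each of Irf1, Isg15 and Igtp. Pathway genes named beyond this were chosen after their values were seen. Single results of some pathway genes are not reported here. Where a probe was undetected on every array of a group, the bound uses the lowest detected signal of each array. Probes outside the table were compared by exact permutation tests. Gene names were matched by accession to RefSeq (14489 probes of the table), and promoters came from RefSeq, build GRCm38.p6.

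Between 16930 and 18969 probes were detected per array, array medians lay between 7.55 and 7.70, and correlations between arrays between 0.868 and 0.986. The number of arrays limits the precision. In simulated data of 21004 probes limma recovered 13.3% of 203 2-fold and 68.1% of 210 3-fold changes in the WT comparison. The shares were 17.5% of 194 and 74.2% of 198 in Mapk9 KO, and 4.69% of 213 and 44.9% of 198 for the interaction. Far fewer probes were changed there than passed in the hips, where 12.7% fell and 12.6% rose in WT and 19.3% and 19% in Mapk9 KO. The adjusted threshold was therefore stricter in the simulation, and its shares do not give the share of injury changes missed here. Each array's deviation from its group mean was correlated with that of every array of the other groups. The correlation was 0.153 to 0.390 (median 0.249) for the 18 pairs sharing a replicate number and −0.289 to 0.0825 (median −0.140) for the 36 that did not, so the numbers were taken to pair the samples. The labels also give each array a code that ends in 1 or 2. It ends in 1 for every replicate 1, in 2 for every replicate 3, and for replicate 2 in 1 in WT and 2 in Mapk9 KO. The part of these codes in the correlations was not tested. Alternatives were neqc, quantile normalization without background correction, subtraction of array medians, a filter to probes detected on 3 arrays or more, 1 fit of all 12 arrays, the replicate block, a block for the label code number, the methods' t-test (which they name for other data), other fold limits, any probe of a gene, and leaving out arrays singly.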

Additional observations from a re-analysis of the deposited data

Results flagged for a closer look

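At the Irf1 probe at transcript position 1707 the 3 WT pairs of injured and control arrays differed by 0.18, 0.03 and 0.53 on the log2 scale and the 3 Mapk9 KO pairs by −0.17, −0.12 and −0.06, so that every pair of 1 genotype moved up and every pair of the other down. The difference of the injury differences was −0.36 (Mapk9 KO minus WT, limma adjusted p = 0.755), and neither injury difference passed the test. No other member probe showed such a split, and how often it occurs over all probes was not counted. Groups of 3 arrays are too small to be screened for single outlying arrays.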

How the results depend on the processing

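Of the 8 genes, 1 fell past 2-fold in WT, 2 in Mapk9 KO and 2 on average. In WT this count became 2 with neqc, with no fold limit and with a fold limit of 1.5, and 0 with quantile normalization without background correction and with the methods' t-test. Leaving out each array in turn gave 0 to 2, with 0 without replicate 1 of the WT control. In Mapk9 KO it became 1 with quantile normalization without background correction, and 6 with no fold limit or a limit of 1.5. Leaving out each array gave 3 to 5, above the full-data count in every case, with 4 without replicate 3 of the control and 5 without replicate 2 of the injured arrays. The average count became 0 with quantile normalization without background correction, 7 with no fold limit and 5 with a limit of 1.5. Leaving out each array gave 1 to 2, with 1 without replicate 1 of the WT control. With the replicate number as a block these counts were 1 in WT, 2 in Mapk9 KO and 2 on average, and the block changed no call of a member's brightest probe in the 6 comparisons. With it 28 in place of 21 of the 95 pathway genes passed in WT and 39 in place of 35 in Mapk9 KO. Of the 84 cell type markers 55 in place of 48 passed in WT and 55 in place of 52 in Mapk9 KO. Over all probes 29.6% passed with the block in WT and 44.8% in Mapk9 KO. The cause of these shifts was not tested, beyond the fold limit itself. Signs turned only for differences that never passed. Leaving out each array, the Irf1 difference ranged from −0.26 to 0.074 in WT, above 0 without replicate 2 of the WT control, from −0.097 to 0.13 in Mapk9 KO, below 0 without replicate 3 of the control or replicate 2 of the injured arrays, and from −0.12 to 0.045 on average. The average was above 0 without replicate 1 or 2 of the WT control, replicate 3 of the WT injured, replicate 2 of the Mapk9 KO control or replicate 3 of the Mapk9 KO injured arrays, and was 0.00363 with array medians subtracted. Isg15 in WT ranged from −0.62 to 0.076, above 0 without replicate 2 of the WT control. Over all alternatives, 749 values of single genes kept their direction and side of the threshold, 22 passed newly, 49 no longer passed and 10 turned sign. Signals near the background give no change for Ifit1.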
